A study of Mus musculus with 11 samples.

Results

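Bivalent chromatin regions of mouse embryonic stem cells that carried only the activating mark in both lineages of the embryonic kidney numbered 1975. Each is a peak of H3K27me3, the mark left by Polycomb, in stem cells (mES) that overlapped by at least 1 bp a peak of H3K4me3, the mark of promoters, in mES, in cap mesenchyme (MM) and in ureteric epithelium (UB), and no H3K27me3 peak in MM or UB. Of the 12879 H3K27me3 peaks of mES, 6728 overlapped mES H3K4me3 and were taken as bivalent. Of these, 5425 also overlapped MM H3K4me3, 4197 then UB H3K4me3, 2720 then had no MM H3K27me3, and 1975 had no UB H3K27me3 either, which is 29.4% of the bivalent regions (95% exact binomial interval 28.3 to 30.5%, counting error only). With the peak lists cut to equal length per mark the share was 44.9%, with 2060 members. The other bivalent regions were 2487 with H3K27me3 in both kidney lineages, 1011 with it in UB only, 435 with it in MM only, and 820 with none in the kidney but H3K4me3 missing in MM or UB.

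MM chromatin came from cap mesenchyme, the nephron progenitors, positive for RFP in kidneys of Cited1nuc-TagRFP-T mice at E18.5, of (C57BL/6 x DBA)F1 origin on a C57BL/6J background. UB chromatin came from ureteric epithelium, the branching tube that forms the collecting ducts, positive for GFP in Hoxb7myr- Venus/+ kidneys at E15.5, of (C57BL/6J x CBA/J)F2 origin on C57BL/6J. Stem cell chromatin came from E14, a wild-type 129/Ola line, at passage 15. RNA came from whole metanephric mesenchyme and ureteric epithelium, each dissected manually at E11.5 in wild-type C57BL/6, so it is younger than the chromatin and was not sorted with the reporters. No RNA of mES was used here. With 1 sample in every group, differences were not checked against replicates and carry no p-value. In such bulk RNA, fewer cells of a type and less RNA per cell cannot be told apart.

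In stem cells, many developmental genes carry H3K4me3 and H3K27me3 on the same promoter, a state named bivalent and held to keep a silent gene ready for use. When a lineage is chosen, a bivalent promoter may lose H3K27me3 and keep H3K4me3, lose H3K4me3 and keep H3K27me3, or keep both. In the kidney, mesenchyme and ureteric bud signal to each other through ligands and receptors whose genes are often bivalent in stem cells.

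CpG dinucleotides are in capitals below, because CpG-rich DNA is where Polycomb and H3K4me3 meet. The stretches of sequence show some promoters that member regions cover at least in part. They are the 250 bases before a start, read 5′ to 3′ on the gene's strand, from RefSeq (GRCm38.p6, the build of the mm10 files). They belong to the widest region (Pax2, chr19:44755502-44755751, plus strand), to the gene highest in MM RNA over UB RNA (Meis2, chr2:116064620-116064869, minus strand), and to the signalling or progenitor genes of highest mean RNA whose stretch lay mostly inside a region: Tcf7l2 (chr19:55895071-55895320, plus strand), Rspo1 (chr4:124986180-124986429, plus strand), Fzd1 (chr5:4758217-4758466, minus strand) and Pax8 (chr2:24475600-24475849, minus strand). The starts used for Pax2 (gene at chr19:44746601-44838269) and Meis2 (gene at chr2:115861264-116067537) lie inside the gene, not at its outer end. The gene highest in UB over MM is Krt8, which spans chr15:101996711-102004342 on the minus strand.
Pax2: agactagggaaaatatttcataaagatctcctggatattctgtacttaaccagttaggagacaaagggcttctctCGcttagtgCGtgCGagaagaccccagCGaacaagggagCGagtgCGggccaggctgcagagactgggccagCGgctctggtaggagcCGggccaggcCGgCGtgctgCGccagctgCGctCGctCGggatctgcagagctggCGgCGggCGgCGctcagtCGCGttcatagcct
Meis2: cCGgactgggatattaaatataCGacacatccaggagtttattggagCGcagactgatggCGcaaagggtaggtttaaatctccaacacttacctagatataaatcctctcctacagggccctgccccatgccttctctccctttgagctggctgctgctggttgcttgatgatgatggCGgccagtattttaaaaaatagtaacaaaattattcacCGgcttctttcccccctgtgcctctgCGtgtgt
Tcf7l2: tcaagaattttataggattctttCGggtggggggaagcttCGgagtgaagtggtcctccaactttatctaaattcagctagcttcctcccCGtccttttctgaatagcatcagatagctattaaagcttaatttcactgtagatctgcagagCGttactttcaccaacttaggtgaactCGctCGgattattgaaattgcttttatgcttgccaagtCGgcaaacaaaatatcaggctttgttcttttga
Rspo1: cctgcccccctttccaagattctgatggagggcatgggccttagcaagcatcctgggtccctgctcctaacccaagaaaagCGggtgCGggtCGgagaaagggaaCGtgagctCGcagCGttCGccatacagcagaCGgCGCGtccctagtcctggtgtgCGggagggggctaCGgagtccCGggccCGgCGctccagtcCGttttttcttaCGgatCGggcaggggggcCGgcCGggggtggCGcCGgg
Fzd1: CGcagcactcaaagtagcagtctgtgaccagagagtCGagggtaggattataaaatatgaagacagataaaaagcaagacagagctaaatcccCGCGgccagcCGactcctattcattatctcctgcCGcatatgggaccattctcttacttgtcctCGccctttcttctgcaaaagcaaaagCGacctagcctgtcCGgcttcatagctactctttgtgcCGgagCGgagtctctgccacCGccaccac
Pax8: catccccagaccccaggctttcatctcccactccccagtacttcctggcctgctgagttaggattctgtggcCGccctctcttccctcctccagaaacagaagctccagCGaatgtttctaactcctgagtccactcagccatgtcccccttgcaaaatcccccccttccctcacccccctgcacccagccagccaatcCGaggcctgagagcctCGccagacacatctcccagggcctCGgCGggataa
The stretch of Pax2 held 20 CpG and that of Rspo1 held 22, with 60.8% G or C in Pax2 and 66.8% in Rspo1. The stretches of Meis2, Tcf7l2 and Pax8 held 7, 7 and 6 CpG, so members were not all rich in CpG.

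Over the 377 promoters of 300 bases (250 before to 50 after a start, 334 genes) that overlapped a member region, the median ratio of observed to expected CpG was 0.675, against 0.667 for promoters at bivalent regions with H3K27me3 in both kidney lineages, 0.753 where the gene had H3K4me3 in all 3 populations and H3K27me3 in none, and 0.384 over all 32851 promoters. Motifs were searched on both strands, and no motif searched lies within another. The GC box, GGGCGG, was in 53.3% of member promoters and 35.7% of all promoters. It was also in 50.5% of those with H3K27me3 in both kidney lineages, 60.0% with it in MM only and 44.3% with it in UB only. Where H3K4me3 was alone in all 3 populations it was in 61.8%, so a high share is not particular to members. The Ets motif CCGGAAG was in 4.24% of member promoters, in 2.47% of those with H3K27me3 in both kidney lineages, in 18.2% of promoters with H3K4me3 alone in all 3 populations and in 8.86% of all promoters. CCAAT was in 27.1% of member promoters and 37.4% of all promoters, TATAAA in 11.4% of member promoters and 13.6% of all, and the E-box CACGTG in 9.81% of member promoters and 7.15% of all. With H3K27me3 in both kidney lineages these shares were 33.4, 10.4 and 7.14%. With H3K4me3 alone in all 3 populations they were 38.0, 6.95 and 9.85%. Member promoters of genes at 1 FPKM or more in MM or UB had a median CpG ratio of 0.724, against 0.635 for those of genes below 1 FPKM in both. These matches describe the letters in the window and are not binding sites.

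Member regions were shorter than bivalent regions with kidney H3K27me3, and lay beside the start more often than on it. Over all mES H3K27me3 peaks, bivalent or not, the median width was 657 bp, less than that of the member regions. The median width of members was 736 bp, from 148 to 16330 bp. Medians were 1410 bp with H3K27me3 in both kidney lineages, 953 bp with it in UB only, 888 bp with it in MM only and 583.5 bp with H3K4me3 missing in MM or UB. Of the 1975 regions, 1380 (69.9%) lay within 1000 bp of a gene start, 468 (23.7%) inside a gene and 127 (6.43%) outside genes. Among 1253 member genes with a known strand, the region nearest a start covered it in 307 (24.5%), lay downstream, in the gene, in 604 (48.2%) and upstream in 342 (27.3%). The start was covered in 56.1% of 1190 genes with H3K27me3 in both kidney lineages, 36.7% of 624 with it in UB only, 33.8% of 260 with it in MM only and 17.2% of 273 with H3K4me3 missing, so a region beside the start is not particular to members. Coverage by member regions was highest at 950 bp into the gene, at 51.2% of starts, and was 24.5% at the start and 31.8% at 500 bp upstream. H3K4me3 peaks covered the same starts in 96.8% of cases in MM, 95.9% in UB and 97.0% in mES. Kidney H3K27me3 covered at most 3.19% of the starts in MM and 7.82% in UB at any distance drawn, values the choice of members keeps low. The peak lists chose these regions, so their widths and positions are a description.

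**Figure D1:**
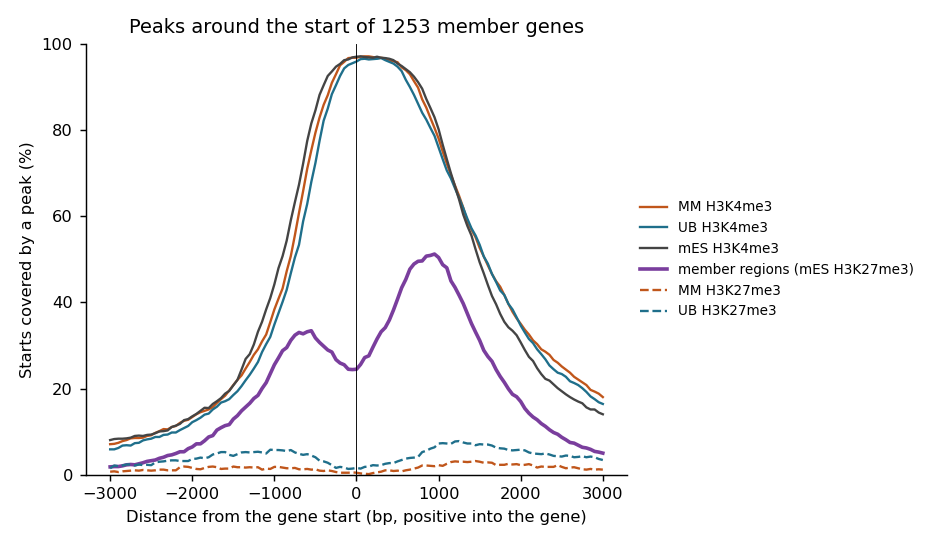
Percentage of 1253 starts of member genes covered by a peak (y axis) against distance from the start in bp, positive into the gene (x axis), for H3K4me3 and H3K27me3 of MM and UB and H3K4me3 of mES, with the member regions as the thick line. The member regions dip to 24.5% at the start and reach 51.2% at 950 bp, while the 3 H3K4me3 lines are above 95% at the start.

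H3K4me3 peaks over the members had similar median widths in the kidney and in stem cells. The widest overlapping H3K4me3 peak had a median width of 2518 bp in MM, 2453 bp in UB and 2499 bp in mES. It was wider in MM than in UB at 1284 members (65.0%) and wider in MM than in mES at 933 (47.2%). The MM peak covered the whole region at 998 members, and the UB peak at 924. The nearest kidney H3K27me3 peak was at a median distance of 30326 bp in MM and 17171 bp in UB, but 151 members (7.65%) had an MM H3K27me3 peak within 1000 bp and 282 (14.3%) a UB one. The UB list held 144362 H3K27me3 peaks, the MM list 108394 and the mES list 12879.

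The rule has an overlap threshold, and members close to it were few. The smallest overlaps with a required peak were 2 bp at Pdlim4 (chr11:54069681-54070721), 2 bp at Cav2 (chr6:17280058-17280693) and 3 bp at Tmprss2 (chr16:97611678-97612195), all with UB H3K4me3, and 172 members had a smallest required overlap under 100 bp. Just outside, 2 bp of UB H3K27me3 barred a region with no gene start (chr11:89298632-89299315), 7 bp barred one at Sgcd (chr11:47987141-47989420), and 10 bp of MM H3K27me3 barred one at Gm32247 (chr6:97615711-97616038). In all, 2222 regions with H3K4me3 in all 3 populations were barred by kidney H3K27me3, 43 of them by under 100 bp.

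The widest members included regions at Pax2 and at Hox genes. Pax2, a paired-box factor needed for both kidney lineages, had a region of 16330 bp (chr19:44746643-44762972), and a neighbour of 7295 bp (chr19:44739252-44746546) shared with Gm35610. The widest single H3K4me3 peak over that region was 20791 bp in MM, 19863 bp in UB and 3509 bp in mES. H3K4me3 peaks together covered 100% of it in MM and in UB, and 73.8% in mES. A region of 8629 bp inside a gene on chr7:70351797-70360425 lay under an MM H3K4me3 peak of 29160 bp. Hoxa3, Hoxa7 and the noncoding Mira shared a region of 5963 bp (chr6:52211757-52217719) under 1 MM peak of 48242 bp, which also covered regions at Hoxa5 and Hoxa6 and overlapped in part the region at Hoxa5 and Hoxaas3, 56.3% of which lay under MM H3K4me3. Hoxd4 (chr2:74722000-74727209), Skida1 (chr2:18043451-18047908), Fgf9, a growth factor for nephron progenitors (chr14:58072196-58076430), and Tnfaip2 (chr12:111442867-111447094) had regions of 5210, 4458, 4235 and 4228 bp. Members at one gene are not independent: 1090 genes had 1 member region, 221 had 2, 20 had 3 and 3 had 4, the last being Gm38462, Prickle1, a planar polarity gene, and Thbd, the thrombin receptor thrombomodulin. Within 5000 bp, 532 members (26.9%) had another bivalent region that was not a member.

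Member regions also overlapped 8 miRNA hairpins, shown because mature arms from 1 region can share a seed (bases 2 to 8, in capitals; RefSeq, GRCm38.p6). Mir10b lay in the Hoxd4 region. Mir34b and Mir34c lay in a region at Btg4 and Hoatz (chr9:51103035-51103817) and their 3p arms had the same seed. The others were Mir203, Mir6538, Mir7236, Gm51281 and Gm51289. No miRNA level was used here.
mmu-miR-10b-5p: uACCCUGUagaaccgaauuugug
mmu-miR-34b-3p: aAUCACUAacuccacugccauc
mmu-miR-34c-3p: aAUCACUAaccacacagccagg

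Genes at member regions were expressed in the kidney about as often in one lineage as in the other. They were expressed less often than genes with H3K4me3 in all 3 populations and H3K27me3 in none. A member region lay within 1000 bp of a start of 1334 genes, 1108 protein-coding and 226 long noncoding, and 1274 had an RNA value. FPKM, fragments scaled by transcript length and by all fragments mapped, was summed over a gene's transcripts. In MM RNA 636 of the 1274 genes (49.9%, interval 47.1 to 52.7%) reached 1 FPKM, and in UB RNA 640 (50.2%, 47.5 to 53.0%), against a background of 33.2% in MM and 34.3% in UB over all genes. Both libraries passed 1 FPKM at 512 member genes (40.2%, against 30.8% of all genes), MM alone at 124, UB alone at 128 and neither at 510. For protein-coding members the shares were 56.6% in MM and 56.8% in UB, against 48.0% in MM and 49.5% in UB of all protein-coding genes. Of the 171 long noncoding members with a value, 12 reached 1 FPKM in MM and 13 in UB.

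Bivalent regions with other fates in the kidney gave lower shares. With H3K27me3 in both lineages, 10.3% of 1129 genes reached 1 FPKM in MM and 10.8% in UB. With H3K27me3 in UB only the shares were 33.8% in MM and 19.8% in UB, and with it in MM only 16.5% in MM and 32.4% in UB. With no kidney H3K27me3 but H3K4me3 missing in MM or UB, they were 29.1% in MM and 27.2% in UB of 213 genes. Where H3K4me3 was present in all 3 populations and H3K27me3 in none, 74.1% of 11966 genes reached 1 FPKM in MM and 76.9% in UB. The exact binomial intervals of the members overlapped none of these. The median member level was 0.992 FPKM in MM and 1.01 in UB, against 4.16 FPKM in MM and 6.25 FPKM in UB for the genes with H3K4me3 alone. Of the member genes, 313 also had a kidney H3K27me3 peak at a start, and of the 302 with RNA 33.8% reached 1 FPKM in MM and 31.1% in UB. The 972 without one reached it in 54.9% of cases in MM and 56.2% in UB.

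**Figure D2:**
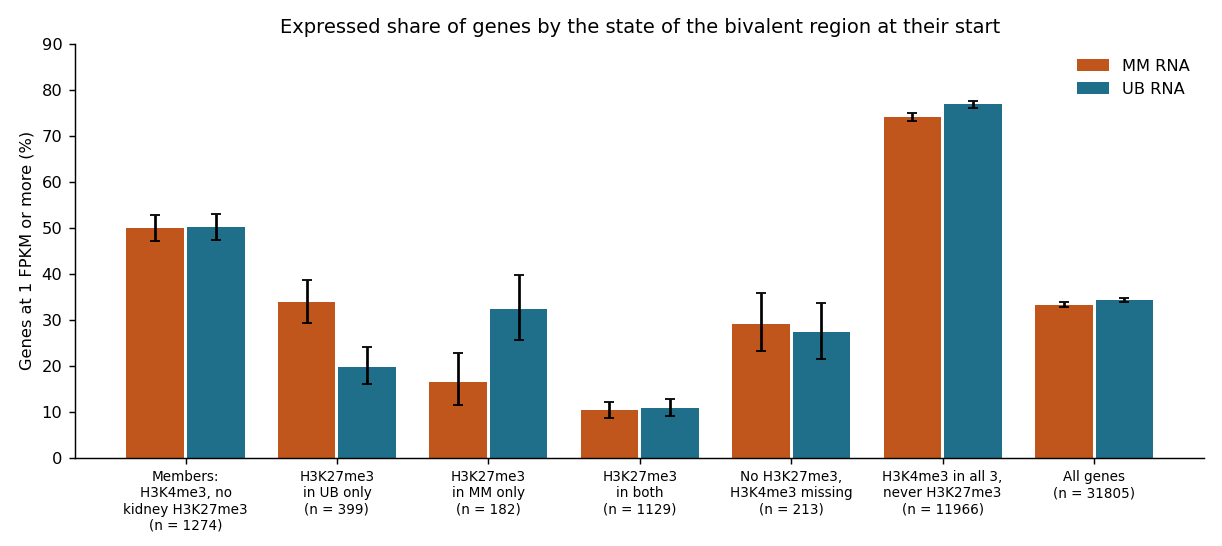
Percentage of genes at 1 FPKM or more (y axis) in MM RNA (left bars) and UB RNA (right bars) for genes grouped by the state of the bivalent region at their start, with 95% exact binomial intervals over genes as error bars. Members stand at 49.9% in MM and 50.2% in UB, between genes with H3K27me3 in both lineages (10.3% in MM and 10.8% in UB) and genes with H3K4me3 in all 3 and no H3K27me3 (74.1% in MM and 76.9% in UB).

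Among members, genes under broad H3K4me3 were expressed more often. Ordered by the width of the widest MM H3K4me3 peak at their regions, and cut into 4 groups of like size, the narrowest (781 to 1823 bp) reached 1 FPKM in MM at 67 of 319 genes (21%), the next groups in 41.2% and 64.2%, and the widest (3468 to 48242 bp) in 73.4%. Median MM levels in these groups were 0.209, 0.508, 1.99 and 5.14 FPKM. By UB H3K4me3 width the shares in UB RNA were 24.5, 45.6, 61.0 and 69.9%. Spearman's rho between width and level across the 1274 genes was 0.48 in MM and 0.41 in UB, a description only, since genes are not replicates and each comparison shares 1 peak list and 1 library. For the width of the mES H3K27me3 region itself rho was 0.12 with MM RNA and 0.10 with UB RNA.

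**Figure D3:**
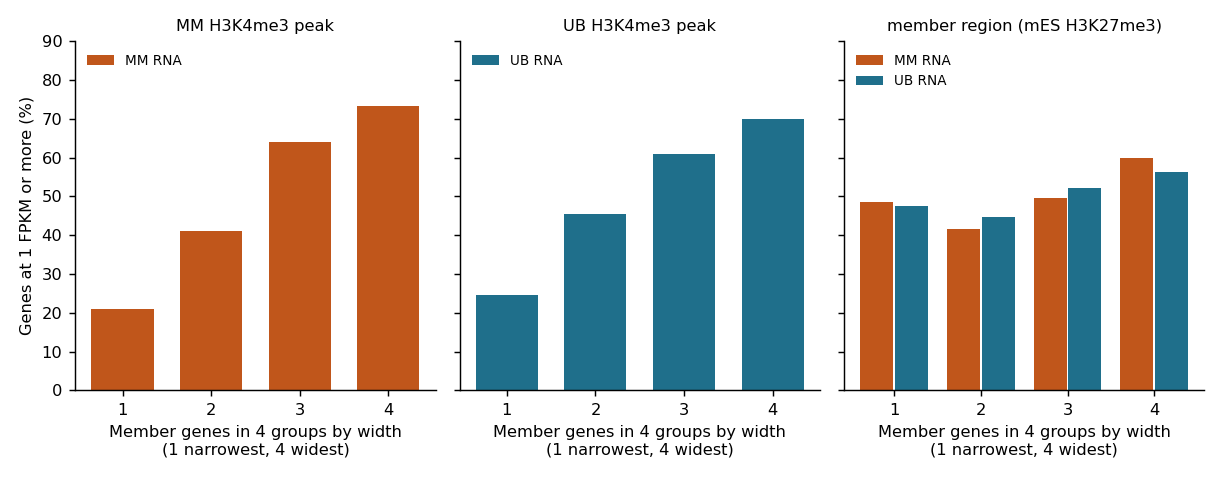
Percentage of member genes at 1 FPKM or more (y axis) in 4 groups by peak width (x axis, narrowest to widest), for MM H3K4me3 with MM RNA, UB H3K4me3 with UB RNA, and the width of the mES H3K27me3 region with both. The bars climb from 21 to 73.4% in MM and from 24.5 to 69.9% in UB, while for mES H3K27me3 width they stay between 41.5 and 59.9%.

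The most abundant member genes were, except for Meis2, abundant in both lineages. The 10 highest by mean FPKM were Gnas, the stimulatory G-protein subunit (303.8 FPKM in MM and 402.6 in UB), Slc25a4, the mitochondrial ADP/ATP carrier (189 in MM and 221 in UB), the tropomyosin Tpm4 (230 in MM and 180 in UB), the amyloid precursor App (65.8 in MM and 171 in UB), the follistatin-like Fstl1 (48.4 in MM and 161 in UB), the chromatin protein Hmga2 (65.1 in MM and 128 in UB), the IGF-binding Igfbp4 (76.9 in MM and 93.7 in UB), the tropomyosin Tpm1 (66.0 in MM and 104 in UB), Meis2 (166 in MM and 2.30 in UB) and the cyclin Ccnd2 (34.2 in MM and 99.2 in UB). Of these, Meis2 differed 4-fold between the libraries. Gnas and Meis2 also had a kidney H3K27me3 peak at a start.

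Differences between the lineages were more frequent among members than over all genes, though not than in every other bivalent class. The call required log2(FPKM + 1) in MM minus UB to be 2 or more in size, and the higher of the libraries to reach 2 FPKM. This log scale shrinks differences at low levels, and with a pseudocount of 0.1 in place of 1 the member counts below became 85 in MM and 129 in UB. Of the 1274 member genes, 51 were higher in MM (4.0%, background 0.711% of all genes) and 81 in UB (6.36%, background 1.54%). The authors' intervals for the most abundant transcript were apart for 50 of the genes higher in MM and 80 of those higher in UB. Among genes at 1 FPKM or more in either library, 6.68% of 764 member genes were called higher in MM and 10.6% in UB, against 1.93% in MM and 4.19% in UB of all 11682. Of 399 genes with H3K27me3 in UB only, 48 were higher in MM and 10 in UB, and of those with it in MM only, none of 182 was higher in MM and 22 were higher in UB. Where H3K27me3 was in both lineages, 2.04% were higher in MM and 3.54% in UB. The libraries differed in scale: the median MM minus UB log2 difference was -0.34 for the 764 member genes at 1 FPKM or more in either library and -0.46 for all such genes. Rescaled to the same median over protein-coding genes at 1 FPKM or more in both (6.88 FPKM in MM and 10.1 in UB), 70 member genes were 4-fold higher in MM (background 0.959%) and 49 in UB (background 1.09%), and the member median turned to 0.15. MM calls thus made up 38.6% of the members' calls as deposited and 58.8% after rescaling.

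Of genes higher in MM, the 10 with the greatest difference included regulators and matrix genes of mesenchyme. Meis2, a homeobox factor of renal stroma, had 166 FPKM in MM and 2.30 in UB (log2 difference 5.67), and its most abundant transcript had 80.0 FPKM in MM (the authors' interval 54.5 to 105) and 1.44 in UB (0.841 to 2.04). Cped1 had 71.1 FPKM in MM and 0.445 in UB (5.64). Vcan, the matrix proteoglycan versican, had 89.0 FPKM in MM and 0.886 in UB (5.58). Nr2f1, an orphan nuclear receptor, had 35.6 FPKM in MM and 0.0807 in UB (5.08). Tgfbi, a secreted matrix protein, had 48.6 FPKM in MM and 0.696 in UB (4.87). Rspo1, a secreted booster of Wnt signalling, had 28.6 FPKM in MM and 0.101 in UB (4.75). Sncaip (4.32), the atypical cadherin Fat4 (4.30), the kinesin Kif26b (4.10) and the zinc-finger repressor Zeb2 (3.92) followed, at 17.0 to 23.7 FPKM in MM and at most 0.239 in UB. By the choice of members, all 10 carried H3K4me3 without H3K27me3 in UB at the member region. Meis2, Vcan, Nr2f1 and Zeb2 nevertheless had a UB H3K27me3 peak elsewhere within 1000 bp of a start.

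Of genes higher in UB, the 10 greatest differences were led by epithelial genes. Krt8, a keratin of simple epithelia, had 0.239 FPKM in MM and 84.4 in UB (log2 difference -6.11), and its most abundant transcript had 0.189 FPKM in MM (the authors' interval 0 to 0.505) and 54.3 in UB (44.3 to 64.4). Mal2, a membrane protein of epithelial transport, had 0.0411 FPKM in MM and 58.3 in UB (-5.83). Ret, the GDNF receptor of the ureteric tip, had 0.341 FPKM in MM and 72.8 in UB (-5.78). Frem2, a basement membrane protein, had 2.40 FPKM in MM and 70.2 in UB (-4.39). Cadps2 (-4.26), the kinesin Kif12 (15.1 FPKM in UB and listed at 0 in MM), the branching factor Sox8 (-3.89), Dcdc2a (-3.82), Cdcp1 (-3.74) and Tmem150c (-3.68) followed, at 14.8 to 35.5 FPKM in UB. Mal2 and Cadps2 had a UB H3K27me3 peak within 1000 bp of a start. All 20 of these extremes kept their call after rescaling. Markers of mesenchyme (Six2, Osr1, Wt1, Eya1, Gdnf) summed to 178 FPKM in MM and 2.40 in UB. These were chosen markers: of 6 nephron progenitor members, Cited1, Pax2, Pax8 and Bmp7 had the higher level in UB, while Rspo1 and Meox2 were higher in MM. Markers of ureteric bud (Ret, Wnt11, Hoxb7, Calb1, Cdh1, Epcam) summed to 13.5 in MM and 2124 in UB. Most of the ureteric sum was 1 gene in each library, Hoxb7 (9.95) in MM and Calb1 (1685) in UB. The 5 blood markers summed to 77.0 FPKM in MM and 11.3 in UB (Hba-a1 listed at 0 in both), nearly all of it Hbb-y (74.5 in MM and 10.9 in UB). The 5 endothelial markers summed to 22.7 in MM and 2.48 in UB, and the 5 of neurons and neural crest to 11.8 in MM and 5.63 in UB. Of 6 members on the stromal list, 4 were 4-fold higher in MM, among them Meis2, Nr2f1 and Fat4, and 1 was higher in UB. The part of stroma, blood, endothelium, neurons and neural crest in the differences was not tested.

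**Figure D4:**
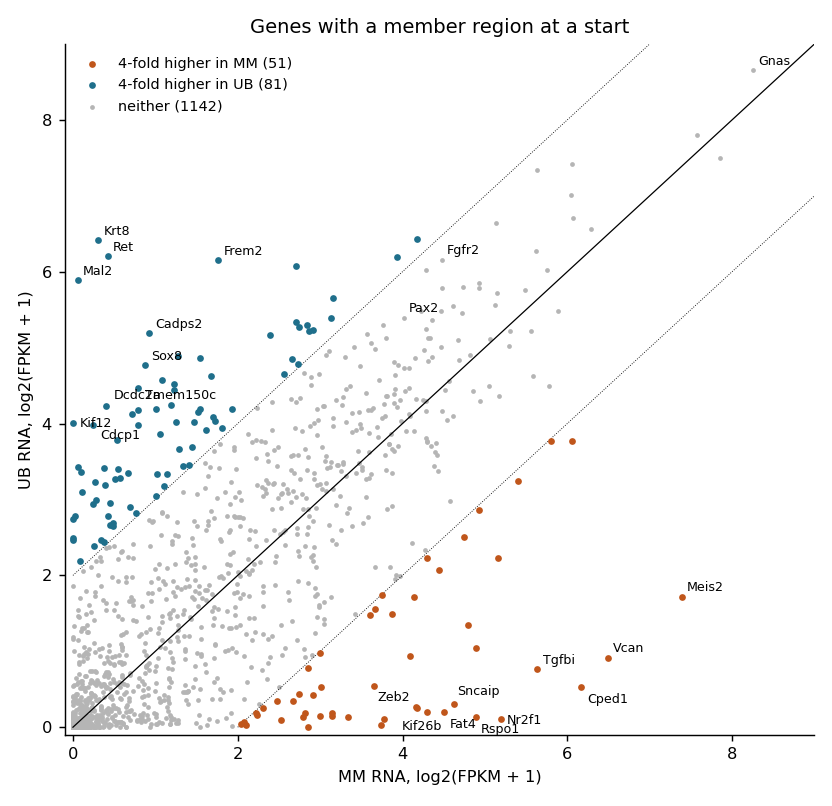
Level of each of 1274 member genes in MM RNA (x axis) and UB RNA (y axis), both as log2(FPKM + 1), with the 51 genes 4-fold higher in MM, the 81 higher in UB and the rest in 3 colours. Dotted lines mark a log2 difference of 2; Meis2 (166 FPKM in MM and 2.30 in UB) and Krt8 (0.239 in MM and 84.4 in UB) lie far from the diagonal and Gnas close to it.

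The share of bivalent genes that were members varied between gene lists. Of the 2681 protein-coding genes with a bivalent region at a start, 1108 (41.3%) were members, and the lists below are read against that share. Notch signalling had 8 members of 11 bivalent genes, proteases of the ADAM and ADAMTS families 9 of 14, guidance and cell contact 19 of 34, and IGF and other growth factors 11 of 20. No member was found among 12 bivalent T-box, 12 LIM homeobox, 12 Nkx, 9 Dlx or Msx, 6 Iroquois or 5 Gata genes, where 12, 11, 12, 9, 5 and 5 had H3K27me3 in both kidney lineages. Forkhead genes had 3 members of 23, Sox genes 3 of 12, Pax genes 2 of 8 and Hox genes 12 of 38. No member stood among 7 bivalent genes of endothelium, 9 of neuron and neural crest or 7 of germ cell and pluripotency.

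**Figure D5:**
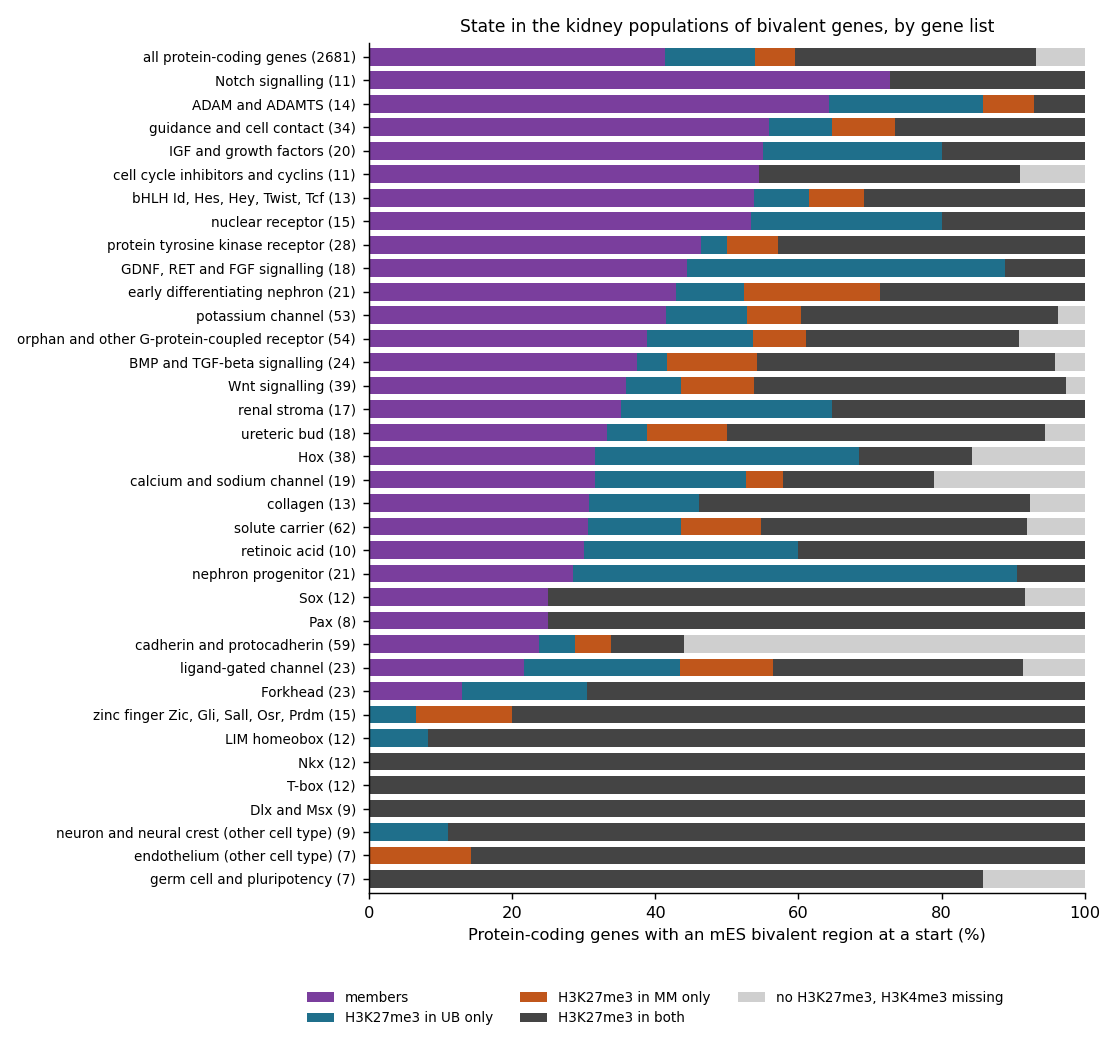
Percentage of bivalent protein-coding genes (x axis) in each kidney state, stacked with members first, for gene lists with at least 7 bivalent genes (number in brackets), ordered by the member share below all protein-coding genes at the top. Members make up 41.3% of all 2681, 8 of 11 Notch genes, and none of the T-box, LIM homeobox, Nkx, Dlx and Msx genes. A gene with any member region at a start counts as a member.

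Most members among the ligands and receptors of kidney signalling were not 4-fold different between the lineages, but calls were not rare there. The background was 4.0% higher in MM and 6.36% in UB over all members, and 0.711% in MM and 1.54% in UB over all genes. Beside it, the GDNF list had 3 of 8 higher in UB and the BMP list 2 of 9, on few genes. The Wnt list had 2 of 14 higher in MM and 1 in UB, and the Hedgehog and retinoic acid lists had none. In GDNF, RET and FGF signalling, 8 of 18 bivalent genes were members: no member was 4-fold higher in MM and 3 were higher in UB, Ret, the FGF receptor Fgfr4 (0.0736 FPKM in MM and 9.28 in UB) and the phosphatase Dusp4 (5.64 in MM and 26.5 in UB), the last not after rescaling. The FGF receptor Fgfr2 had 21.2 FPKM in MM and 70.5 in UB, while Fgfr1 had 29.7 in MM and 18.6 in UB. Fgfrl1 (8.72 FPKM in MM and 10.3 in UB), the ligand Fgf9 and the receptor Fgfr3 did not pass. In Wnt signalling 14 of 39 were members, with Rspo1 and the antagonist Frzb (3.13 FPKM in MM and 0.0273 in UB) higher in MM and the receptor Fzd6 (0.726 in MM and 14.9 in UB) higher in UB. The ligand Wnt4 (4.12 FPKM in MM and 0.552 in UB) and the receptor Fzd1 (13.4 in MM and 3.30 in UB) passed 4-fold only after rescaling. The receptor Fzd4 (8.84 in MM and 28.3 in UB), the inhibitor Nkd1 (18.6 in MM and 12.7 in UB) and the Wnt effector Tcf7l2 (20.5 in MM and 9.42 in UB) did not pass, nor did Fzd3, Fzd8, Lgr5, Nkd2, Dkk2 and Wnt9a. Fzd6 and Wnt4 also had an H3K27me3 peak at a start in MM, and Tcf7l2, Fzd3 and Wnt9a in UB. In BMP and TGF-beta signalling 9 of 24 were members, and Id4 (6.31 FPKM in MM and 36.4 in UB) and the receptor Bmpr1b (1.73 in MM and 11.96 in UB) were higher in UB, neither after rescaling. The ligand Bmp7 had 9.65 FPKM in MM and 31.1 in UB, and Id3, an inhibitor of bHLH factors, 19.5 in MM and 40.1 in UB. The ligands Gdf11, Tgfb2 and Inhba, the protease Bmp1 and Fstl1 did not pass. In Hedgehog signalling 2 of 5 were members, the signal transducer Smo (21.1 FPKM in MM and 43.5 in UB) and the receptor Ptch1 (7.13 in MM and 7.84 in UB), and neither passed. Of 10 bivalent retinoic acid genes 3 were members, none 4-fold different: the retinal reductase Dhrs3 (35.0 FPKM in MM and 19.7 in UB), the receptor Rxra (5.29 in MM and 10.9 in UB) and the retinol carrier Rbp4 (0.305 in MM and 0.622 in UB). Rbp4 also had an H3K27me3 peak at a start in UB.

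Notch members held the ligand Jag1, higher in UB (2.18 FPKM in MM and 23.8 in UB), and 7 that were not 4-fold different, among them the coactivator Maml3 (6.25 in MM and 6.31 in UB) and the target genes Hey1 (2.93 in MM and 1.49 in UB) and Heyl (1.26 in MM and 0.117 in UB). The others were the target genes Hey2 and Hes7, the modifier Lfng and the ligand Dll1. Hey2 also had an H3K27me3 peak at a start in UB. Among growth factors and their partners, Igfbp5 was higher in MM (41.3 FPKM in MM and 8.43 in UB) and the EGF receptor ligand Tgfa in UB (0.619 in MM and 6.46 in UB) although the Tgfa call was not kept after rescaling. The receptor Met had 3.66 FPKM in MM and 12.8 in UB, and the receptor Igf2r 23.4 in MM and 45.8 in UB. Igfbp4, Igfbp7, Ntrk2, Hbegf, Egfr and Csf1 were not 4-fold different, and Areg was listed at 0 in both. Ntrk2 and Egfr also had an H3K27me3 peak at a start in UB, and Areg in MM and in UB. Of 19 guidance members, 16 reached 1 FPKM in MM and 14 in UB, against 56.6% in MM and 56.8% in UB of protein-coding members. Efnb2, an ephrin (5.52 FPKM in MM and 66.3 in UB), Slit2, a Robo ligand (5.55 in MM and 39.3 in UB), and Sema3c (5.68 in MM and 37.8 in UB) were higher in UB, and the semaphorin receptor Nrp2 (3.66 in MM and 0.135 in UB) in MM. Nrp1 had 43.7 FPKM in MM and 53.0 in UB, and the Slit receptor Robo1 had 14.6 in MM and 18.8 in UB. Nrp2 and Robo1 also had an H3K27me3 peak at a start in UB, as did Ntn4 and Sema7a. The netrin receptor Unc5c and the ephrin receptor Epha7 passed 4-fold, higher in MM, only after rescaling. Sema3f (8.96 FPKM in MM and 20.9 in UB), Sema3d, Sema4c, Sema5a, Sema7a, Plxna1, Plxna2, Plxna4, Efnb1, Ephb6 and Ntn4 did not pass.

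Among lineage regulators, 2 of 6 nephron progenitor members were 4-fold higher in MM and 4 of 6 ureteric members in UB. Of all members 4.0% were 4-fold higher in MM and 6.36% in UB (0.711% in MM and 1.54% in UB of all genes). The other 4 nephron progenitor members had the higher level in UB, and the median log2 difference of that list was -1.26. Of 21 bivalent nephron progenitor genes 6 were members, and 13 had H3K27me3 in UB only. All 6 reached 1 FPKM in MM and 4 in UB, against 56.6% in MM and 56.8% in UB of protein-coding members. Rspo1 and the homeobox gene Meox2 (12.7 FPKM in MM and 0.0783 in UB) were higher in MM, while Pax2 (15.1 in MM and 41.1 in UB), Pax8 (4.41 in MM and 11.6 in UB), Bmp7 and the reporter gene Cited1 (2.78 in MM and 8.34 in UB) were not 4-fold different. Of 18 ureteric genes 6 were members, Krt8, Ret, Pax2, Pax8, Sox8 and Sox9, which all reached 1 FPKM in UB, and Sox9 (7.79 FPKM in MM and 40.9 in UB) lost its call after rescaling. The stromal list had 6 members of 17, and 4 were higher in MM, Meis2, Nr2f1, Fat4 and Foxc2 (16.9 FPKM in MM and 0.206 in UB), while Hoxd8 was higher in UB as deposited and Hoxd3 (3.39 in MM and 4.58 in UB) was not 4-fold different. Sox9 had an H3K27me3 peak at a start in both MM and UB, and Foxc2 in UB. Of 21 bivalent genes of the early nephron 9 were members, Sox9, Jag1, Foxc2, Wnt4, Hey1, Heyl, Lfng, Dll1 and the cadherin Cdh6 (1.90 FPKM in MM and 0.114 in UB). Cdh6 also had an H3K27me3 peak at a start in UB. The blood list had 1 member, Runx1 (0.155 in MM and 0.672 in UB), which also had an H3K27me3 peak at a start in MM. Cell cycle genes gave 6 members of 11: the inhibitor Cdkn1a (0.188 FPKM in MM and 6.68 in UB) was higher in UB and the repressor Hic1 (6.02 in MM and 0.136 in UB) in MM, while Ccnd2, Cdkn1b (5.39 in MM and 11.1 in UB), Myc (6.58 in MM and 4.16 in UB) and Gadd45g (2.60 in MM and 0.998 in UB) were not 4-fold different. Hic1 also had an H3K27me3 peak at a start in MM and in UB. Of 12 Hox members, 7 were not 4-fold different. Among Hox members Hoxa6 (28.6 in MM and 1.07 in UB), Hoxa5 (20.8 in MM and 3.21 in UB) and Hoxa3 (11.7 in MM and 1.93 in UB) were higher in MM, and Hoxd8 (6.18 in MM and 38.4 in UB) and Hoxd1 (0.363 in MM and 6.78 in UB) in UB, Hoxd8 not after rescaling. Hoxd1 also had an H3K27me3 peak at a start in MM. Hoxd4 had 24.6 FPKM in MM and 33.3 in UB.

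Potassium channel members were mostly under 1 FPKM in both libraries. Of 22 such members 16 (against 32.5% of protein-coding members and 47.3% of all protein-coding genes) stayed under it, and none was 4-fold different. Kcnmb4, a subunit of a calcium-activated channel, was the highest at 12.9 FPKM in MM and 9.45 in UB. Of 18 solute carriers 10 were under 1 FPKM in both, and of 8 nuclear receptor members 5, among them the vitamin D receptor Vdr and the thyroid hormone receptor Thrb. These shares were above that of protein-coding members and closer to that of all protein-coding genes, on few genes. Thrb also had an H3K27me3 peak at a start in MM and in UB. Of 21 G-protein-coupled receptor members 12 reached 1 FPKM in either library, and the endothelin receptors Ednrb (1.39 FPKM in MM and 15.2 in UB) and Ednra (6.04 in MM and 0.903 in UB) lay on opposite sides. Among matrix members, the basement membrane collagens Col4a1 (21.4 in MM and 54.0 in UB) and Col4a2 (14.4 in MM and 26.3 in UB) and the laminin Lamb1 (17.1 in MM and 85.0 in UB) had the higher level in UB, 4-fold for Lamb1 as deposited but not after rescaling. Polycomb and DNA methylation genes gave 3 members of 6, the methyltransferase Dnmt3a (33.9 FPKM in MM and 46.3 in UB), Phc2 (15.2 in MM and 25.6 in UB) and Bmi1 (14.8 in MM and 15.4 in UB), and none was 4-fold different. Bmi1 also had an H3K27me3 peak at a start in MM and in UB.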

How the data were processed

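Chromatin was measured by native, MNase-digested ChIP with 1 sample per group, and RNA by stranded total RNA libraries. Peaks were called by the authors with MACS after Bowtie2 on mm10, and TopHat, Cufflinks and Cuffdiff gave the RNA values, per the submitters' processing notes; for versions and settings the sources used here give nothing. The deposited peak lists carry a score per peak, as the authors' caller gave it, whose meaning is not stated. The deposited RNA table holds FPKM per transcript, and the authors' bounds on each FPKM estimate (a signal in the same unit); read depth is unknown. Pooling of libraries is not stated. Inputs were not analysed here.

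Peaks were intersected (at least 1 bp) and linked to RefSeq GRCm38.p6 gene starts plus and minus 1000 bp, using Python 3.11.15, pandas 2.3.3 and scipy 1.17.1. Transcripts of 200 bp or more with a RefSeq match were summed per gene, 90.7% of 138486 being placed; the 5290 unannotated ones, with 93.6% of the FPKM sum in MM and 93.9% in UB, were left out. Strand agreed in 17936 of 17936 genes checked. Scripts were tested on simulated data. Genes named were the members of the pathway and lineage lists (at most 6 by mean FPKM in full per list, fewer in some), the 10 extremes each way, the 10 most abundant, those at the widest regions and at the overlap threshold, and of genes with several regions those with 4; a few others were chosen after their values were seen. The members and lists were chosen with earlier results of these data known.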

Additional observations from a re-analysis of the deposited data

How the results depend on the processing

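No paired analysis was possible because each group held 1 sample. Over 12 results and 19 settings, 16 planned and 3 chosen after seeing the data, 92 of 166 values stayed within 1.5 times the count or within the interval of the value, 73 moved and 1 reversed. The direction of the member against H3K27me3-in-both comparison held throughout. Below, values run as share of bivalent regions, share at 1 FPKM in MM and in UB, share difference from genes with H3K27me3 in both lineages in MM and in UB (percentage points), and median log2 level in MM and in UB. With kidney H3K27me3 within 1000 bp also barring they were 23.9, 55.9, 56.5, 44.7, 44.0, 1.24 and 1.44. With every list cut to the 50% of peaks scoring highest they were 22.1, 57.6, 56.1, 47.0, 45.1, 1.34 and 1.48, with 834 regions, 639 genes, and 28 and 45 genes 4-fold higher in MM and UB. With lists of equal length per mark they were 44.9, 45.1, 45.3, 35.3, 35.6, 0.73 and 0.76. With a score of at least 50 the share of regions was 33.8, and in UB 45.8, 35.0 and 0.83. With an overlap of 50% of the shorter peak the share of regions was 27.8.

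Without the share of regions, 500 bp around starts gave 45.2, 45.5, 35.1, 35.0, 0.77 and 0.83, and 53 genes higher in UB. Protein-coding genes alone gave 56.6, 56.8, 44.0, 44.8, 1.24 and 1.43. Member genes with no kidney H3K27me3 at a start (chosen after seeing the data) gave 54.9, 56.2, 44.7, 45.4, 1.20 and 1.44, and 32 genes higher in MM. The most abundant transcript gave 42.9, 46.2 and, in MM, 33.9, with levels of 0.75 and 0.84. A threshold of 0.5 FPKM gave 58.7, 58.6, 44.0 and 43.6, and 2 FPKM gave 38.1, 41.6, 31.2 and 33.7.

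Rescaling both libraries to the same median reversed the sign of the median difference, to 0.15, with levels of 1.14 and 0.88 and 49 genes higher in UB. A pseudocount of 0.1 gave levels of 0.13 and 0.16, with 85 genes higher in MM and 129 in UB, and no FPKM filter moved the median difference to -0.0302. Genes at 1 FPKM or more in either library had levels of 2.11 and 2.45. The cause of each shift was not tested. Keeping transcripts under 200 bp, or the outermost start only (both chosen after seeing the data), left their results within range. Precision is limited by 1 library per group, an unstated score, a mES H3K27me3 list shorter than the kidney lists, and RNA of an earlier stage than the chromatin.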
